A study of Homo sapiens with 12 samples.

Results

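The transcripts of 10 genes of the lysosomal protease system were followed in MDA-MB-231 cells, namely the cathepsins CTSS, CTSW, CTSB, CTSD, CTSC, CTSH, CTSL, CTSZ and CTSA and the inhibitor cystatin C, CST3. They are 10 of the 20042 genes that the platform annotation names by 1 symbol, and they carry 17 of the 47322 probes of the array. The set was chosen by the detection p-values of CTSS and CTSW, which passed the detection threshold on the arrays of 1 group only. The values of these 2 genes are therefore a description with no test, and the other 8 genes, with 15 probes, were set beside them. All 17 probes passed the filter on dim probes (detection p under 0.05 on at least 3 of 12 arrays).

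MDA-MB-231 cells are an established line from a human breast carcinoma with mutant p53, the tumour suppressor, and TNF is an inflammatory cytokine that acts through the transcription factor NF-kB. There were 4 groups of 3 arrays, all from transfected cells: p53 siRNA with TNF, p53 siRNA untreated, control siRNA with TNF and control siRNA untreated. Every culture was grown in medium with 10% serum, and at 48 h after transfection all groups went into 0.1% serum for 20 h, with TNF at 10 ng/ml or without it. The labels call the 3 arrays of a group biological replicates, and they do not say whether these came from separate transfections, so the p-values cover the spread over these 3 arrays, which may be partly technical. The RNA came from whole cultures of 1 line, in which a change in the number of expressing cells and a change in RNA per cell cannot be told apart.

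Cathepsins are proteases that are made as inactive precursors, carried to the lysosome on mannose 6-phosphate receptors and activated in its acid interior. Most are cysteine proteases (CTSS, CTSW, CTSB, CTSC, CTSH, CTSL and CTSZ), CTSD is an aspartic protease and CTSA a serine carboxypeptidase, while CST3 is a secreted protein that blocks cysteine cathepsins. CTSS is best known in antigen-presenting cells, where it trims the invariant chain of MHC class II, and CTSW in cytotoxic T cells and natural killer cells. In breast cancer, secreted cathepsins are known for cutting the matrix around the tumour.

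Between 19810 and 21157 probes were detected per array, and the median intensity of an array lay between 226.35 and 266.0. Markers fixed for this line's mesenchymal type (VIM, CD44, MSN, AXL, CAV1 and ANXA1) were detected on every array, and ESR1, PGR and CDH1, which mark luminal breast epithelium, on none, while KRT8, KRT19 and ERBB3 of the same list were detected on every array. GATA3 was detected on all 3 arrays of untreated p53 siRNA and of TNF-treated control siRNA cells. TNF-treated control siRNA cells, in which CTSS and CTSW were detected, were the only group with FOXA1 on all 3 arrays. Both GATA3 and FOXA1 were detected on at least 1 array of every group. One array stood apart. Untreated p53 siRNA replicate 3 differed by 1 or more on the log2 scale from the mean of the other 2 arrays of its group at 4.54% of kept probes. Replicates 1 and 2 of that group did so at 1.97 and 1.18%, and the 9 arrays of the other groups at 0.277 to 0.533%. Among the 17 probes of the cathepsins and CST3, 8 differed by at least 0.5 on replicate 3. Replicates 1 and 2 had 4 such probes each, and no array of the other groups had more than 1. The untreated p53 siRNA group was thus the most spread, and through the shared estimate its spread enters the p-values of every comparison. Without its replicate 3, 2309 probes were called with TNF in control siRNA cells, against 1439 with it (limma, adjusted p under 0.05). Results that rest on replicate 3 of untreated p53 siRNA are given with and without that array.

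CTSS and CTSW gave a signal above background on the 3 arrays of TNF-treated control siRNA cells and on none of the other 9 arrays. The intensity of the CTSS probe was 212.8, 199.3 and 187.4 on the arrays of TNF-treated p53 siRNA cells and 173.4, 181.1 and 194.2 on those of untreated p53 siRNA cells, all undetected. It was 359.0, 370.9 and 312.3 in TNF-treated control siRNA cells, against 177.6, 141.5 and 151.2 in untreated control siRNA cells. The TNF-treated control siRNA arrays were thus the high ones for CTSS, and they overlapped with no other group. For CTSW the intensity was 222.8, 258.6 and 274.2 in TNF-treated p53 siRNA cells and 226.3, 215.9 and 234.2 in untreated p53 siRNA cells. In TNF-treated control siRNA cells it was 475.3, 622.2 and 499.9, against 244.8, 237.0 and 230.3 in untreated control siRNA cells. The same 3 arrays were high for CTSW, again without overlap.

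**Figure D1:**
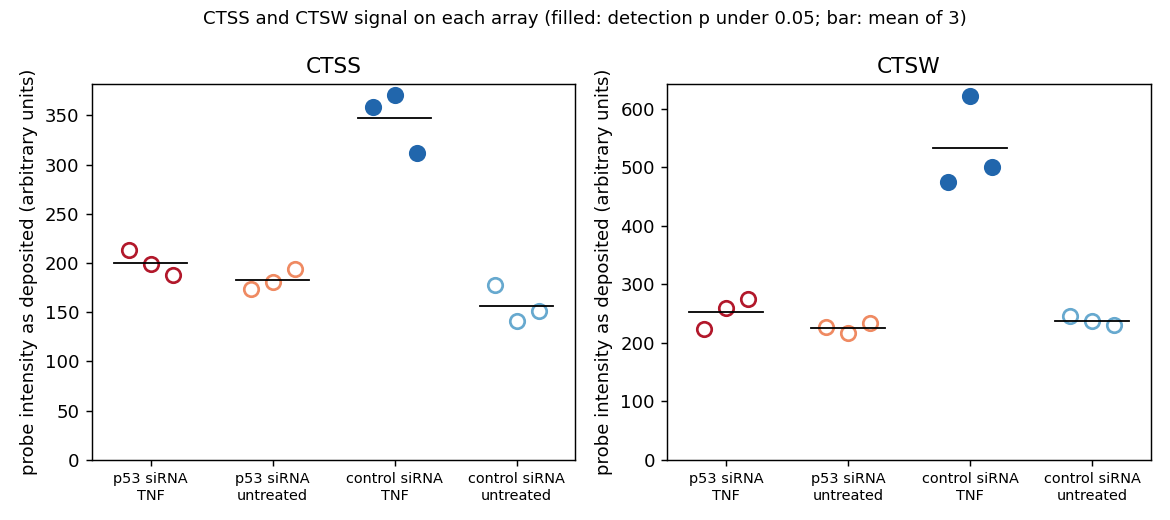
Deposited probe intensity (linear, arbitrary units) of CTSS (left) and CTSW (right) on each of the 12 arrays, by group. Filled points have a detection p under 0.05, open points do not, and bars are means of 3 arrays. The 3 arrays of TNF-treated control siRNA cells lie at 312.3 to 370.9 for CTSS and at 475.3 to 622.2 for CTSW, above all others.

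Where a probe is undetected on all 3 arrays of a group only a bound can be given, which sets the mean of the bright group against the lowest level at which probes were detected on the dim arrays. CTSS was at least 1.60-fold lower in TNF-treated p53 siRNA cells than in TNF-treated control siRNA cells, and at least 1.66-fold higher in TNF-treated than in untreated control siRNA cells. CTSW was at least 3.43-fold lower in TNF-treated p53 siRNA cells than in TNF-treated control siRNA cells, and at least 3.56-fold higher in TNF-treated than in untreated control siRNA cells. The normalised log2 level in TNF-treated control siRNA cells was 7.17 ± 0.13 for CTSS and 8.27 ± 0.26 for CTSW (SD, n = 3). Without background correction the same bounds shrink, on the log2 scale, to between 0.29 and 0.31 for CTSS and to between 0.85 and 0.87 for CTSW, so their sizes depend on the processing.

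The detection threshold that defines this pattern had members close to it on both sides. Among the detected values the weakest was CTSS on TNF-treated control siRNA replicate 3, with a detection p of 0.01169, and at a threshold of 0.01 CTSS would be detected on 2 of these 3 arrays. CTSW had a detection p of 0.0013 on all 3 of them. Among the undetected values the nearest was CTSW on TNF-treated p53 siRNA replicate 3, with a detection p of 0.05584. Over the whole array, 27 probes of 47322 were detected on all 3 TNF-treated control siRNA arrays and on no other array, against 8 for TNF-treated p53 siRNA, 15 for untreated p53 siRNA and 24 for untreated control siRNA cells.

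The genes whose normalised level followed that of CTSS most closely over the 12 arrays were MMP9, a matrix metalloprotease, with a Pearson r of 0.97, and IDO1, which degrades tryptophan, with 0.97. After them came SGPP2, a sphingosine phosphate phosphatase, with 0.96, SERPINA3, a secreted serine protease inhibitor, with 0.95, and HIBADH, a mitochondrial enzyme of valine breakdown, with 0.94. For CTSW they were SERPINA3 with 0.99, MMP9 with 0.99, IDO1 with 0.99, CITED4 with 0.97 and SLAMF8 with 0.96, and CTSS and CTSW followed each other with 0.95. These correlations describe 12 arrays in 4 groups, share each array's normalisation, and rest largely on the 3 arrays of TNF-treated control siRNA cells. MMP9 and IDO1 were themselves detected on 3 of 12 arrays, all of them TNF-treated control siRNA arrays.

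The neighbours of CTSS and CTSW in the RefSeq gene order (GRCh38.p14) were read on the same arrays. Next to CTSS on chromosome 1 lies CTSK, a collagen-cutting cysteine cathepsin, which was detected on all 12 arrays. Its change with TNF in control siRNA cells was 0.56 ± 0.16 (adjusted p = 0.0596), in the direction of CTSS and not called. In TNF-treated cells CTSK was higher with p53 siRNA than with control siRNA, by 0.75 ± 0.16 on the log2 scale (SE, adjusted p = 0.00485), the opposite direction to CTSS, a call that was lost with arrays brought to a common median (adjusted p = 0.0766). On the other side HORMAD1 was detected on 0 arrays. Next to CTSW on chromosome 11, EFEMP2, an extracellular matrix protein, was lower with p53 siRNA in TNF-treated cells by a log2 change of -1.59 ± 0.17 (SE, adjusted p = 5.74e-05), the direction of CTSW, while its TNF change in control siRNA cells was 0.41 ± 0.17 (adjusted p = 0.226). On the other side FIBP had, with p53 siRNA in TNF-treated cells, a change of -0.49 ± 0.23 (adjusted p = 0.139).

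Since CTSS and CTSW are best known from leukocytes, 18 leukocyte markers were read on the same arrays. PTPRC, CD3E, NKG7, GZMB, PRF1, KLRD1, TYROBP and FCER1G, among them markers of T and natural killer cells, were undetected in all 4 groups. Other T cell markers were detected in part: CD8A on all 3 arrays of untreated p53 siRNA, TNF-treated control siRNA and untreated control siRNA cells, and CD3D on all 3 arrays of both p53 siRNA groups and on none of the TNF-treated control siRNA arrays. CD2 was detected on at least 1 array of each control siRNA group and on none of the p53 siRNA arrays. The B cell marker MS4A1 was detected on at least 1 array of each TNF-treated group and on no untreated array. The summed normalised level of the 17 markers on the array was 15685 to 16915 in TNF-treated p53 siRNA cells and 16326 to 17870 in untreated p53 siRNA cells. It was 14487 to 15240 in TNF-treated control siRNA cells, against 13517 to 15313 in untreated control siRNA cells, so the group in which CTSS and CTSW were detected overlapped with its untreated partner. CD14, CD68, LYZ, AIF1 and CSF1R were detected on all 12 arrays, and with TNF 1 of the 8 markers tested was called, LYZ, or lysozyme, beside 2.92% of genes lower by their brightest probe in p53 siRNA cells and 3.77% in control siRNA cells. It fell in p53 siRNA cells (log2 change -1.53 ± 0.20, adjusted p = 0.000613) and in control siRNA cells (-1.71 ± 0.20, adjusted p = 0.000205). With p53 siRNA, 2 of the 8 were higher and 0 lower in TNF-treated cells, beside 12.6% and 14.7% of genes, and 3 higher and 0 lower in untreated cells, beside 16.1% and 16.4%. These became 1 higher and 1 lower, and 2 higher and 1 lower, with arrays brought to a common median. The part of these markers in the results was not tested.

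The other 8 genes were detected widely, 13 of their 15 probes on all 12 arrays, and they were tested in 1 linear model over all kept probes (limma, Benjamini-Hochberg adjustment over 23079 probes, called at an adjusted p under 0.05). With TNF, 3 of 15 probes were called in p53 siRNA cells, where 4.93% of all probes were, and these were 2 higher and 1 lower (2.57% and 2.37% of all probes). In control siRNA cells 4 of 15 were called, where 6.24% of all probes were, 2 higher and 2 lower (3.31% and 2.92%). With p53 siRNA, 6 of 15 were called in TNF-treated cells beside 23.1% of all probes, 4 higher and 2 lower (10.7% and 12.4%), and 3 of 15 in untreated cells beside 27.7%, 2 higher and 1 lower (14% and 13.8%). The share called with p53 siRNA in untreated cells was below that background, and the shares in the other comparisons of this paragraph were above theirs. The 15 probes belong to 8 genes and are not independent of each other. Whether the set differs from all probes was not tested. With arrays brought to a common median instead of quantiles the splits were 2 higher and 0 lower with TNF in p53 siRNA cells, 1 and 0 with TNF in control siRNA cells, 2 and 2 with p53 siRNA in TNF-treated cells, and 1 and 2 in untreated cells. Without the array that stood apart they were 4 and 1, 3 and 2, 5 and 3, and 5 and 3 in the same order.

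The arrays of the compared groups did not overlap at 4 higher and 2 lower of the 15 probes with TNF in p53 siRNA cells, where 10.1% and 10.7% of all probes did so. With TNF in control siRNA cells they did not overlap at 7 higher and 2 lower probes, beside 14% and 15.4%. With p53 siRNA the counts were 5 and 3 in TNF-treated cells, beside 23.9% and 23.3%, and 3 and 2 in untreated cells, beside 19% and 18.9%. The median log2 change over the 15 probes was 0.13 with TNF in p53 siRNA cells (-0.0014 over all probes), 0.09 with TNF in control siRNA cells (-0.01), 0.08 with p53 siRNA in TNF-treated cells (0.02) and 0.21 with p53 siRNA in untreated cells (0.01). CTSB, CTSZ and CTSA were called in none of the 5 comparisons.

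**Figure D2:**
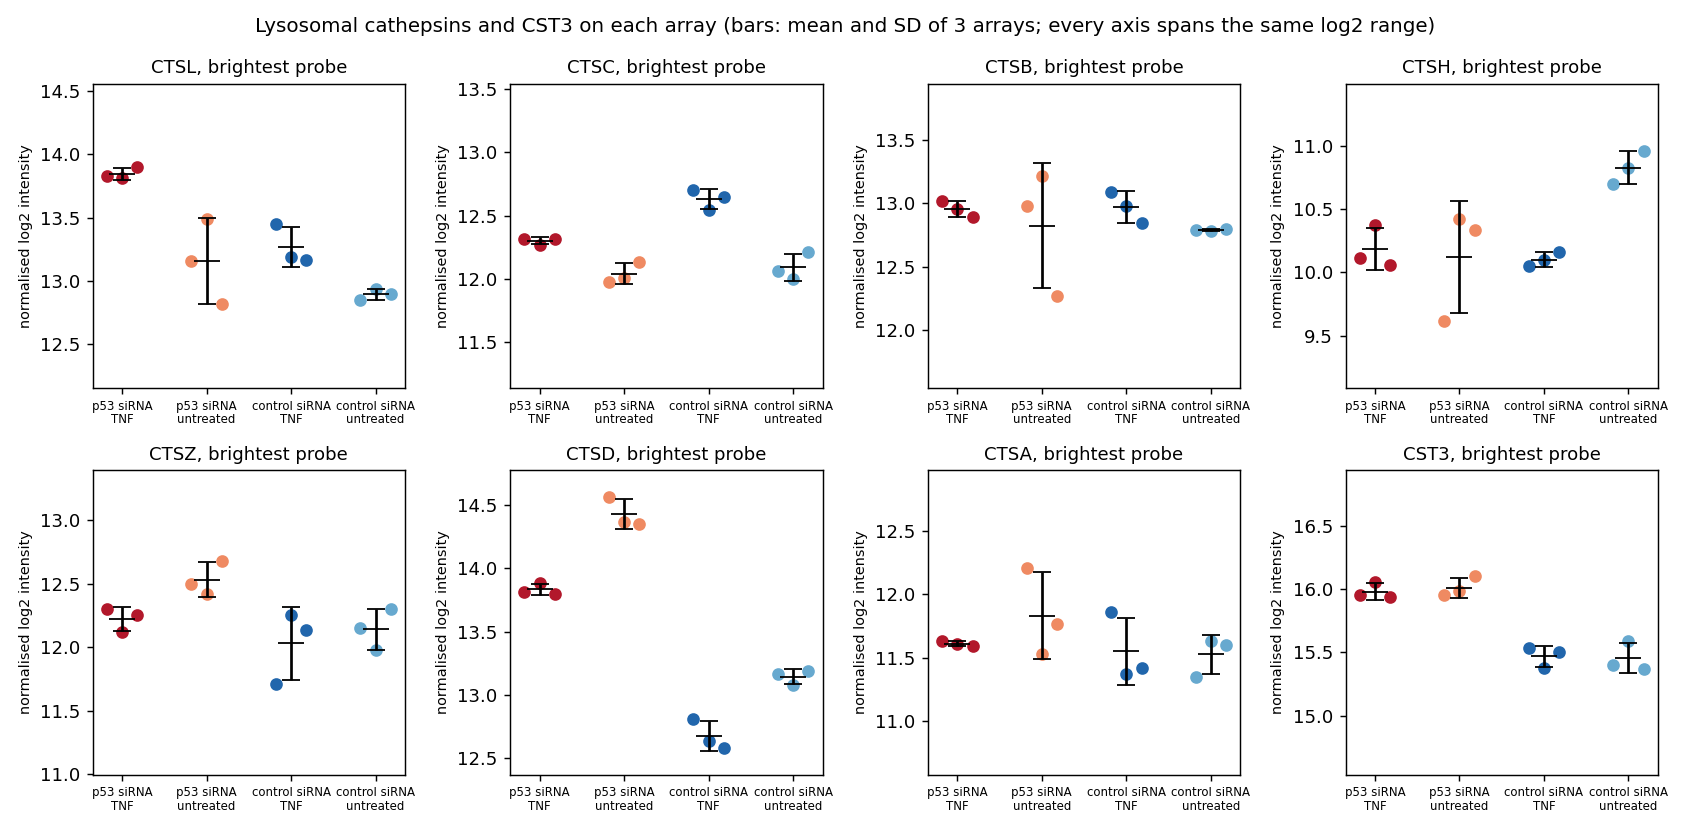
Normalised log2 intensity of the brightest probe of each of the 8 broadly detected genes on each array, by group, with the mean and SD of 3 arrays. CTSD and CST3 lie higher in both p53 siRNA groups than in both control siRNA groups, CTSC is highest in TNF-treated control siRNA cells, and CTSH is highest in untreated control siRNA cells.

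CTSD, the aspartic protease of the lysosome, had the clearest change of the set. Its normalised log2 level was 13.82, 13.89 and 13.80 in TNF-treated p53 siRNA cells, against 12.81, 12.64 and 12.58 in TNF-treated control siRNA cells. In untreated cells it was 14.56, 14.37 and 14.35 with p53 siRNA, against 13.17, 13.08 and 13.19 with control siRNA. Every p53 siRNA array was above every control siRNA array at both treatments. CTSD was 2.23-fold higher with p53 siRNA in TNF-treated cells (log2 change 1.16 ± 0.11, SE, adjusted p = 3.17e-05) and 2.43-fold higher in untreated cells (1.28 ± 0.11, adjusted p = 1.63e-05). Both calls were made in all 23 alternatives, with log2 changes between 0.96 and 1.22 in TNF-treated cells and between 1.06 and 1.32 in untreated cells.

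TNF moved CTSD the other way. It fell by 0.59 ± 0.11 on the log2 scale in p53 siRNA cells (SE, adjusted p = 0.00958) and by 0.47 ± 0.11 in control siRNA cells (adjusted p = 0.0287), with no overlap between treated and untreated arrays in either. The 2 falls did not differ beyond their error: the difference, p53 siRNA minus control siRNA, was -0.12 with a 95% interval of -0.47 to 0.23. The fall in control siRNA cells was lost as a call without any 1 of the 3 untreated control arrays or without TNF-treated control replicate 2 or 3 (adjusted p = 0.0668 to 0.125), and neither fall was called with a common median (adjusted p = 0.0798 in p53 siRNA and 0.14 in control siRNA cells).

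CST3, the secreted cysteine cathepsin inhibitor, rose with p53 siRNA as CTSD did, by less. Its normalised log2 level was 15.95, 16.05 and 15.93 in TNF-treated p53 siRNA cells, against 15.53, 15.38 and 15.50 in TNF-treated control siRNA cells. In untreated cells it was 15.95, 15.98 and 16.10 with p53 siRNA, against 15.40, 15.59 and 15.37 with control siRNA. The groups did not overlap, and CST3 was 1.42-fold higher with p53 siRNA in TNF-treated cells (log2 change 0.51 ± 0.11, SE, adjusted p = 0.00652) and 1.47-fold higher in untreated cells (0.56 ± 0.11, adjusted p = 0.00325). TNF gave changes of -0.03 ± 0.11 in p53 siRNA cells and 0.02 ± 0.11 in control siRNA cells (adjusted p = 0.923 and 0.97). The probe was among the brightest, at 83.8 to 97.4% of its array's highest intensity in p53 siRNA cells and 60.3 to 71.3% in control siRNA cells, and the part of a ceiling in these changes was not tested. With a common median the calls were lost (adjusted p = 0.0524 in TNF-treated and 0.0669 in untreated cells).

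Some fibroblast and endothelial markers were higher with p53 siRNA, as CTSD and CST3 were. The summed normalised level of the 8 markers was 2259 to 2504 in TNF-treated p53 siRNA cells, against 1486 to 1827 in TNF-treated control siRNA cells, and 1612 to 1793 in untreated p53 siRNA cells, against 964 to 1093 in untreated control siRNA cells. Of these markers PDGFRA, VWF, CDH5 and KDR were undetected in all 4 groups, while PECAM1 was detected on all 3 arrays of each group. LUM and COL1A1 were detected on all 3 arrays of every group except untreated control siRNA cells. DCN was detected on all 3 arrays of TNF-treated p53 siRNA cells only. Of the 4 markers tested, 2 were called higher with p53 siRNA in TNF-treated cells and 3 in untreated cells, where 12.6% and 16.1% of genes were higher by their brightest probe, led by LUM, a matrix proteoglycan (log2 change 1.45 ± 0.21 and 1.74 ± 0.21, SE), and with TNF, where CTSD fell, 2 were higher in p53 siRNA cells and 3 in control siRNA cells, beside 3.13% and 4.06% of genes. Scaled to a common median, the counts were 1 and 3 with p53 siRNA in TNF-treated and untreated cells, and 0 and 2 with TNF in p53 siRNA and control siRNA cells. Their part in the changes of CTSD and CST3 was not tested.

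The promoters of CTSD, CST3 and CTSA are shown because CTSD and CST3 rose together with p53 siRNA while CTSA, which shares a motif with CTSD, was not called. Each runs 5′ to 3′ along the gene's strand, from 250 bases before the start of the gene to 50 bases after it (RefSeq, GRCh38.p14), and capitals mark CACGTG, the E-box core bound by the TFEB family, the regulators of lysosomal genes.
CTSD, chr11:1763878-1764177, minus strand: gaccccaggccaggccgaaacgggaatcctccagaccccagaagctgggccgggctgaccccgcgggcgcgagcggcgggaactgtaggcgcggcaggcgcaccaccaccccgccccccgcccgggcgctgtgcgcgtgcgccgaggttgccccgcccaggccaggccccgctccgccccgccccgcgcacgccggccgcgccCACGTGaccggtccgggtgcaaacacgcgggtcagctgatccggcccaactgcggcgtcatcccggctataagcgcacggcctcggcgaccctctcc
CST3, chr20:23637906-23638205, minus strand: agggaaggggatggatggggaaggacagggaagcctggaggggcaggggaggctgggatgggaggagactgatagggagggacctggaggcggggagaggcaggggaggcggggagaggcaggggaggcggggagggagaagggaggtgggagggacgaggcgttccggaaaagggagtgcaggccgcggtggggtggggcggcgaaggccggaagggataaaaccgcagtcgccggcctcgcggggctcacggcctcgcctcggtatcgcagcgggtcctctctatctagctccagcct
CTSA, chr20:45891085-45891384, plus strand: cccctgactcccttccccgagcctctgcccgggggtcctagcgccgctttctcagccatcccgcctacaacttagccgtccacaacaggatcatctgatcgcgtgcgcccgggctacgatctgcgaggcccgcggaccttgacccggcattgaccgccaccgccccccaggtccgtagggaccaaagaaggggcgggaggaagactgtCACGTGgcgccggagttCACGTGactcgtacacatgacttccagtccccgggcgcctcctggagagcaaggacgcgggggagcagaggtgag
In these windows CACGTG starts at position -47 of CTSD and at positions -42 and -25 of CTSA, and it is not in that of CST3. Of the 10 genes, 7 had a promoter in the RefSeq table. CTSS, CTSW and CTSB had none there, so no motif was searched for in their promoters. Of the 7 searched, 2 held CACGTG on either strand, against 7.26% of 35116 promoters of the same length. The left part of the NF-kB consensus, GGGNNTTTC, was in 0 of the 7 and in 4.78% of all promoters, the interferon response core GAAANNGAA in 0 and 8.11%, and the AP-1 motif TGANTCA in 0 and 7.71%, each searched on both strands. A match or its absence describes letters in these windows and no binding was measured.

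CTSL, a cysteine endopeptidase of the lysosome that some tumour cells secrete, was measured by 3 probes, which followed each other over the 12 arrays with a Pearson r of 0.93 to 0.98. The brightest probe had normalised log2 levels of 13.83, 13.81 and 13.90 in TNF-treated p53 siRNA cells, against 13.16, 13.49 and 12.82 in untreated p53 siRNA cells. In control siRNA cells it had 13.45, 13.18 and 13.17 with TNF, against 12.85, 12.94 and 12.89 without it. TNF-treated p53 siRNA cells were thus the highest group, apart from each of the others. With TNF in p53 siRNA cells, CTSL rose at probe 1 (log2 change 0.69 ± 0.16, adjusted p = 0.0258) and at probe 2 (0.77 ± 0.18, adjusted p = 0.027), and the dim probe 3 changed by 0.51 ± 0.19 (adjusted p = 0.168). In control siRNA cells the 3 probes had TNF changes of 0.28 to 0.37, all higher without overlap but not called (adjusted p = 0.233 to 0.52).

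With p53 siRNA under TNF, CTSL rose 1.49-fold at probe 1 (log2 change 0.58 ± 0.16, adjusted p = 0.0198) and 1.60-fold at probe 2 (0.68 ± 0.18, adjusted p = 0.0161), while probe 3 changed by 0.45 ± 0.19 and was not called (adjusted p = 0.11). In untreated cells the 3 probes had p53 siRNA changes of 0.22 to 0.26 that were not called, and the array that stood apart was the lowest of its group at each of them. Without it these changes were 0.43 to 0.49 and called at all 3 probes (adjusted p = 0.00701 to 0.0273), and the TNF changes in p53 siRNA cells were 0.52 and 0.53 at probes 1 and 2, still called. The TNF calls at both probes were lost without any 1 of the TNF-treated p53 siRNA arrays (adjusted p = 0.0767 to 0.0984), and that of probe 1 also without untreated p53 siRNA replicate 1 (0.0614), and both when only the compared groups were fitted (0.153 and 0.165). Under TNF, the p53 siRNA call at probe 1 was lost without TNF-treated control replicate 2 or 3 or any 1 of the TNF-treated p53 siRNA arrays (adjusted p = 0.0502 to 0.074) and with a common median (0.114), and that at probe 2 without TNF-treated control replicate 2 (0.0627).

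CTSC, also called dipeptidyl peptidase 1, removes dipeptides from the ends of proteins and activates the serine proteases of leukocyte granules. It had 4 probes, of which 3 name 1 transcript and the dim probe 4 another. Probe 3 had normalised log2 levels of 11.38, 11.29 and 11.09 in TNF-treated p53 siRNA cells, against 11.89, 12.01 and 12.16 in TNF-treated control siRNA cells. In untreated cells it had 10.97, 11.16 and 10.64 with p53 siRNA, against 11.19, 11.30 and 11.37 with control siRNA. The TNF-treated control siRNA arrays were the high ones. CTSC fell with p53 siRNA under TNF, 1.70-fold at probe 3 (log2 change -0.77 ± 0.15, adjusted p = 0.00291, called in all 21 alternatives) and 1.26-fold at probe 1 (-0.33 ± 0.11, adjusted p = 0.0474). Probe 2 changed by -0.39 ± 0.18 (adjusted p = 0.145) and probe 4 by 0.10 ± 0.28 (adjusted p = 0.844). In untreated cells p53 siRNA changed probe 3 by -0.36 ± 0.15, without overlap but not called (adjusted p = 0.0914). That change was called in 3 of 21 alternatives, among them a common median (-0.57, adjusted p = 0.0069). Probes 1 and 2 changed there by -0.05 and -0.22 (adjusted p = 0.778 and 0.397).

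With TNF, CTSC rose in control siRNA cells, 1.66-fold at probe 3 (log2 change 0.73 ± 0.15, adjusted p = 0.011) and 1.46-fold at probe 1 (0.54 ± 0.11, adjusted p = 0.0115), with 0.48 ± 0.18 at probe 2 (adjusted p = 0.169). In p53 siRNA cells the changes at probes 1 to 3 were 0.26 to 0.33 and not called (adjusted p = 0.228 to 0.395). The difference between these responses, p53 siRNA minus control siRNA, was -0.40 at probe 3, with a 95% interval of -0.86 to 0.05, and -0.28 at probe 1, with -0.62 to 0.06, and was not called at either (adjusted p = 0.572 and 0.605). Probes 1 to 3 of CTSC, detected on every array, thus had their highest mean in the group in which CTSS and CTSW were detected. Probe 4 did not: its mean log2 level was 7.21 ± 0.25 in TNF-treated p53 siRNA cells, against 7.11 ± 0.24 in TNF-treated control siRNA cells (SD, n = 3 each), and its TNF change was 0.54 ± 0.28 in p53 siRNA cells and 0.09 ± 0.28 in control siRNA cells (adjusted p = 0.342 and 0.921). The TNF calls in control siRNA cells were lost at probe 1 without untreated control replicate 2 or TNF-treated control replicate 1 or 3 (adjusted p = 0.0506 to 0.0575) and with a common median (0.0947), and at probe 3 without untreated control replicate 1 or TNF-treated control replicate 3 (0.0515 and 0.057). The p53 siRNA call at probe 1 was made in 11 of 23 alternatives and was lost without any 1 of the control siRNA arrays or of the TNF-treated p53 siRNA arrays (adjusted p = 0.0578 to 0.136). Without the array that stood apart, probe 2 was also called with TNF in p53 siRNA cells (0.57, adjusted p = 0.00423), with TNF in control siRNA cells (0.48, adjusted p = 0.00486), and with p53 siRNA in TNF-treated cells (-0.39, adjusted p = 0.00541) and in untreated cells (-0.48, adjusted p = 0.00324). Probe 4 was then called with TNF in p53 siRNA cells (0.92, adjusted p = 0.0187) and with p53 siRNA in untreated cells (-0.72, adjusted p = 0.0196, against -0.34 with the array).

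CTSH, an aminopeptidase, was highest in untreated control siRNA cells. Its brighter probe had normalised log2 levels of 10.12, 10.37 and 10.06 in TNF-treated p53 siRNA cells and 9.62, 10.42 and 10.34 in untreated p53 siRNA cells. In control siRNA cells it had 10.05, 10.09 and 10.16 with TNF, against 10.70, 10.82 and 10.96 without. The untreated control siRNA arrays were above all other 9. CTSH was 1.65-fold lower with TNF in control siRNA cells (log2 change -0.73 ± 0.19, adjusted p = 0.0429) and 1.63-fold lower with p53 siRNA in untreated cells (-0.70 ± 0.19, adjusted p = 0.0159). These comparisons share the untreated control siRNA arrays, so the values are not independent of each other.

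In p53 siRNA cells TNF gave CTSH a change of 0.06 ± 0.19 (adjusted p = 0.911), and under TNF p53 siRNA gave 0.08 ± 0.19 (adjusted p = 0.804). CTSH had the only unadjusted p under 0.05 among the 15 probes for the difference between the TNF responses, 0.78 with a 95% interval of 0.20 to 1.37, which was not called (adjusted p = 0.367). Its dimmer probe had changes of -0.41 ± 0.29 with TNF in control siRNA cells and -0.45 ± 0.29 with p53 siRNA in untreated cells, neither called (adjusted p = 0.538 and 0.273). The TNF call was made in 11 of 23 alternatives and was lost without any 1 of the 6 control siRNA arrays or of the TNF-treated p53 siRNA arrays (adjusted p = 0.053 to 0.148). The p53 siRNA call was lost without untreated control replicate 3 (adjusted p = 0.0609), with the mean of both probes (0.0503) and when only the compared groups were fitted (0.0678).

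**Figure D3:**
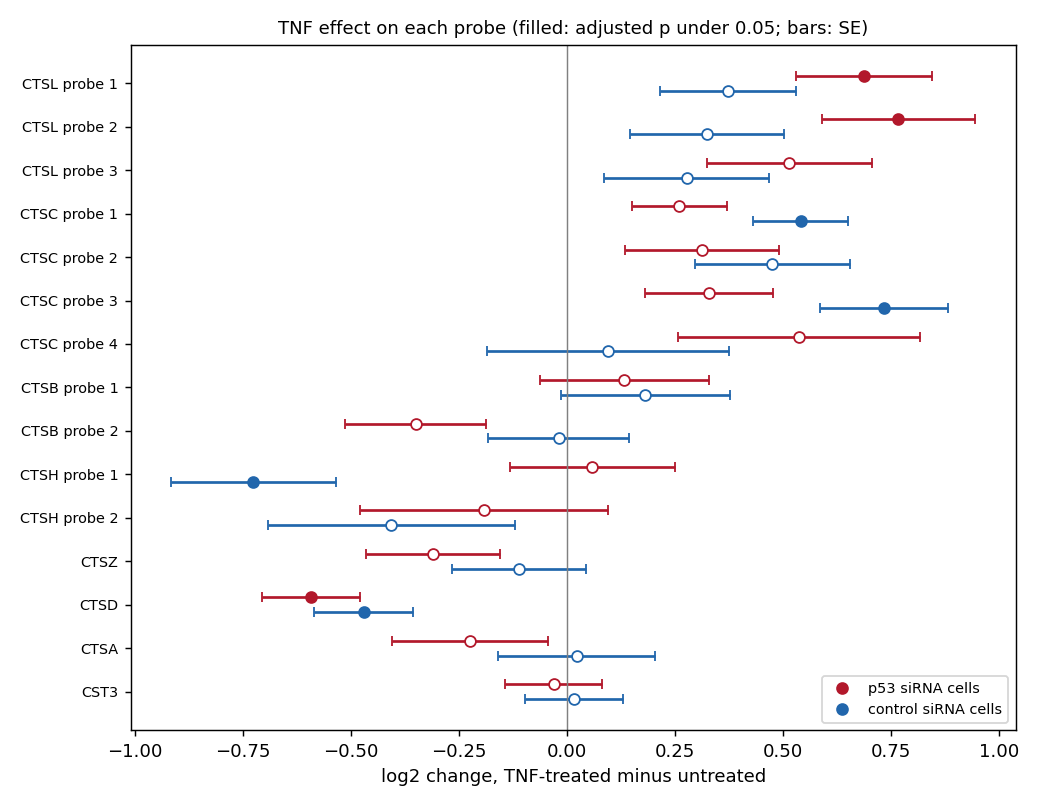
Log2 change with TNF, TNF-treated minus untreated, for each of the 15 probes, in p53 siRNA cells and in control siRNA cells, with SE bars; filled points have an adjusted p under 0.05. CTSL is called in p53 siRNA cells, CTSC and CTSH in control siRNA cells, and CTSD, at -0.59 and -0.47, in both.

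**Figure D4:**
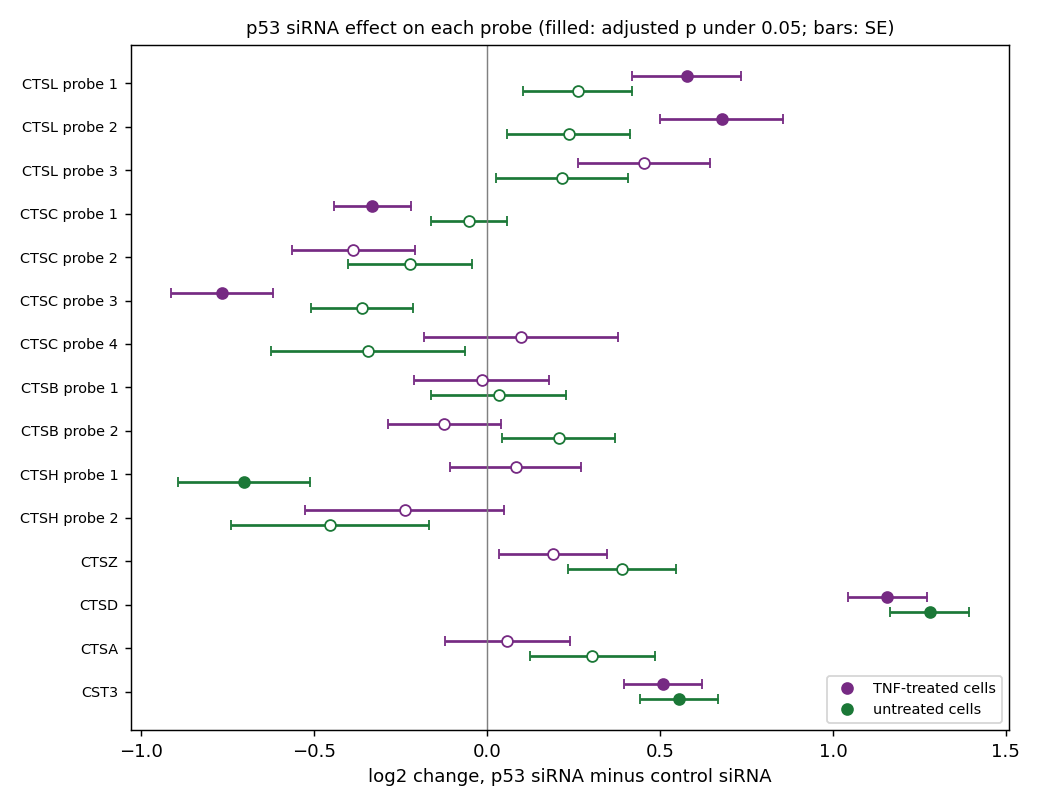
Log2 change with p53 siRNA, p53 siRNA minus control siRNA, for each of the 15 probes, in TNF-treated cells and in untreated cells, with SE bars; filled points have an adjusted p under 0.05. CTSD, at 1.16 and 1.28, and CST3, at 0.51 and 0.56, lie to the right at both treatments.

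CTSB, CTSZ and CTSA had no change that was called. CTSB is the most studied cathepsin of breast cancer and both an endopeptidase and a dipeptidase. Its brighter probe ranged from 12.27 to 13.22 and its changes in the 4 comparisons between groups lay between -0.02 and 0.18 (adjusted p = 0.728 to 0.968). With p53 siRNA its 95% intervals were -0.44 to 0.41 in TNF-treated cells and -0.39 to 0.46 in untreated cells, both below those of CTSD, 0.91 to 1.41 and 1.03 to 1.53. Without the array that stood apart its change with p53 siRNA in untreated cells was 0.31 (adjusted p = 0.0627) in place of 0.03, and its TNF change in p53 siRNA cells was -0.14 (adjusted p = 0.496) in place of 0.13. The 2 CTSB probes, which name different transcripts, moved against each other over the 12 arrays (Pearson r -0.71), and this rests on the array that stood apart, where one was low and the other high: without it r was -0.01.

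CTSZ, a carboxypeptidase, had normalised log2 levels of 12.50, 12.42 and 12.68 in untreated p53 siRNA cells, against 12.15, 11.98 and 12.30 in untreated control siRNA cells. These groups did not overlap, but the change of 0.39 ± 0.16 was not called (adjusted p = 0.0823), and it was called without background correction (adjusted p = 0.0364), in the authors' processed values (0.0384) and without TNF-treated control replicate 1 (0.0472). With TNF, CTSZ changed by -0.31 ± 0.16 in p53 siRNA cells and by -0.11 ± 0.16 in control siRNA cells (adjusted p = 0.32 and 0.81). CTSA, which also protects lysosomal beta-galactosidase and neuraminidase in a complex, changed by 0.06 ± 0.18 with p53 siRNA in TNF-treated cells and by 0.30 ± 0.18 in untreated cells, with 95% intervals of -0.34 to 0.45 and -0.09 to 0.70. Its changes with TNF were -0.22 ± 0.18 in p53 siRNA cells and 0.02 ± 0.18 in control siRNA cells (adjusted p = 0.574 and 0.974).

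**Figure D5:**
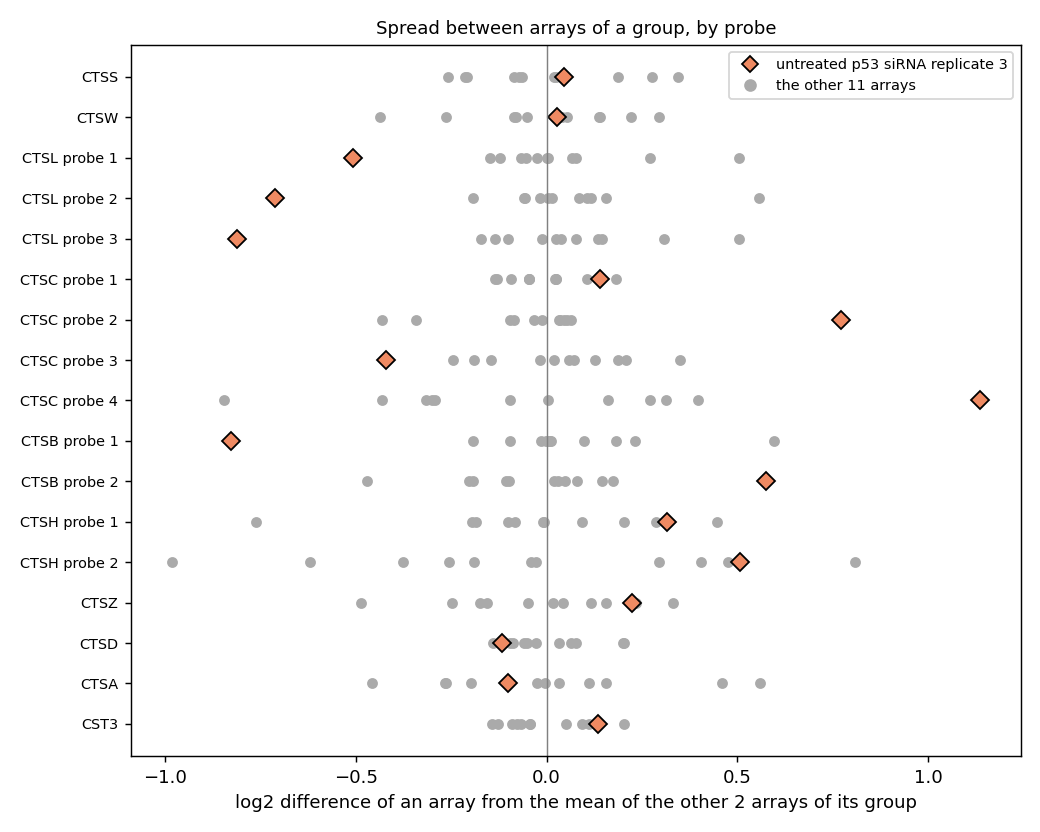
Log2 difference of each array from the mean of the other 2 arrays of its group, for the 17 probes. Diamonds mark untreated p53 siRNA replicate 3, which reaches 1.14 at CTSC probe 4 and lies low at the 3 CTSL probes and at CTSB probe 1; grey points are the other 11 arrays.

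The difference between the TNF responses, p53 siRNA minus control siRNA, was called for 0 of the 15 probes (limma, 1 of 15 at an unadjusted p under 0.05), where 0.0823% of all probes were called, 19 of 23079, or 0.013% higher and 0.0693% lower. In the gene lists, too, it was called for 0 genes, beside 0.016% of genes higher and 0.088% lower by their brightest probe. The differences lay between -0.40 at CTSC probe 3 and 0.78 at CTSH probe 1, and their 95% intervals reached 1.37 on one side and -0.86 on the other. TNF changes had the same sign in both siRNA conditions at 12 of 15 probes. For p53 siRNA changes the sign was the same at both treatments at 11 of 15. The share of all kept probes with the same sign was not computed, so these counts have no background to be read against. The 15 probes belong to 8 genes, and probes of the same gene are counted separately here.

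Several genes in a list of other cathepsins and related proteases were called with p53 siRNA. The genes tested were CTSF, CTSK, CTSO, CTSV, LGMN, TPP1 and NAPSA. Of 7 tested, 3 were higher and 2 lower in TNF-treated cells, where 12.6% of 12507 genes were higher and 14.7% lower by their brightest probe, and 4 were higher and 2 lower in untreated cells, beside 16.1% and 16.4%. CTSV, a close relative of CTSL, fell, with a log2 change of -1.85 ± 0.19 in TNF-treated and -1.94 ± 0.19 in untreated cells (SE, adjusted p = 3.93e-05 and 2.61e-05), opposite to CTSL. Whether the CTSL and CTSV probes bind both transcripts was not tested. CTSF, a widely expressed cysteine cathepsin, rose by 0.85 ± 0.12 in TNF-treated cells (adjusted p = 0.000491). LGMN, the asparaginyl endopeptidase that processes cathepsin precursors, fell by 1.07 ± 0.16 on the log2 scale there (adjusted p = 0.000502). In untreated cells NAPSA, an aspartic protease related to CTSD, rose by 1.21 ± 0.19 and CTSK by 1.08 ± 0.16 (adjusted p = 0.000678 and 0.000396). With TNF, 0 of the 7 were called in either siRNA condition, with CTSK at 0.56 ± 0.16 in control siRNA cells (adjusted p = 0.0596). Beside this, 3.13% of genes were higher and 2.92% lower in p53 siRNA cells, and 4.06% and 3.77% in control siRNA cells. Without the array that stood apart 2 of the 7 were called in each siRNA condition. With arrays brought to a common median the counts with p53 siRNA were 1 higher and 2 lower in TNF-treated cells, and 3 higher and 2 lower in untreated cells.

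Among the other cystatins and inhibitors, 6 of 16 were tested, and the secreted cystatins CST1, CST2 and CST4 rose with TNF in both siRNA conditions, beside 3.13% of genes higher in p53 siRNA cells and 4.06% in control siRNA cells. CST1 rose by 0.85 ± 0.15 in p53 siRNA cells and by 1.49 ± 0.15 in control siRNA cells (SE, adjusted p = 0.00649 and 8.05e-05), CST4 by 0.73 ± 0.14 and 0.92 ± 0.14 (0.00893 and 0.00159) and CST2 by 0.88 ± 0.17 and 0.71 ± 0.17 (0.00921 and 0.026). These 3 genes have similar sequences, and whether their probes tell them apart was not tested. CST3, in contrast to them, was not called with TNF, and that contrast itself was not tested. With p53 siRNA, CST1 and CST4 were called higher at both treatments, 2 of the 6 tested in each. Over all genes, 12.6% were higher by their brightest probe in TNF-treated cells and 16.1% in untreated cells. SERPINB1, an inhibitor of neutrophil proteases, was lower in TNF-treated cells by a log2 change of -0.70 ± 0.13 (adjusted p = 0.00199), beside 14.7% of genes. With a common median, 1 was called with TNF in p53 siRNA cells and 2 in control siRNA cells, and with p53 siRNA 0 were higher and 1 lower in TNF-treated cells and 1 higher and 1 lower in untreated cells. The p53 siRNA call of CST1 in TNF-treated cells (adjusted p = 0.0407) was made in 11 of 23 alternatives and was lost without any 1 of the control siRNA arrays or of the TNF-treated p53 siRNA arrays (adjusted p up to 0.22 over the alternatives).

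Lysosomal hydrolases other than proteases were counted beside CTSD. With p53 siRNA, 8 of 25 were higher and 3 lower in TNF-treated cells, beside 12.6% and 14.7% of genes, and 10 were higher and 2 lower in untreated cells, beside 16.1% and 16.4%. IDUA, which degrades glycosaminoglycans, rose by 1.11 ± 0.18 in TNF-treated and by 1.71 ± 0.18 in untreated cells (SE, adjusted p = 0.000835 and 3.76e-05), and PSAP, the precursor of the saposins, by 0.83 ± 0.12 in TNF-treated cells (adjusted p = 0.000502). With arrays brought to a common median the split was 2 higher and 4 lower in TNF-treated cells and 5 higher and 3 lower in untreated cells, so the balance of this list depends on the scaling. That scaling moved the median of all probes in the p53 siRNA comparisons to -0.12, against 0.02 in TNF-treated and 0.01 in untreated cells with quantiles. With TNF, 1 of 25 was called in each siRNA condition, near the 3.13% of genes higher in p53 siRNA cells and 4.06% in control siRNA cells: SGSH, a heparan sulfate sulfatase, which rose by 0.56 ± 0.13 in p53 siRNA cells and by 0.85 ± 0.13 in control siRNA cells (adjusted p = 0.0258 and 0.00159). With a common median the first of these calls was lost, and without the array that stood apart 2 and 3 of the 25 were called.

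The lysosomal membrane, acidification and TFEB family list gave 4 higher and 3 lower of 16 with p53 siRNA in TNF-treated cells, beside 12.6% and 14.7% of genes, and 5 higher and 3 lower in untreated cells, beside 16.1% and 16.4%, so that the lower counts are near the share over all genes. With a common median 0 were higher and 5 lower in TNF-treated cells, and 1 higher and 4 lower in untreated cells. ATP6V1B2, a subunit of the proton pump, fell, with log2 changes of -0.77 ± 0.13 in TNF-treated and -0.86 ± 0.13 in untreated cells (SE, adjusted p = 0.00137 and 0.000564). Without the array that stood apart 7 were higher and 5 lower in TNF-treated cells. TFEB itself was undetected in all 4 groups, while TFE3 and MITF of the same family were detected on all 3 arrays of each group. With TNF, 0 of the 16 were called in p53 siRNA cells, beside 3.13% of genes higher and 2.92% lower. In control siRNA cells 1 was called, beside 4.06% and 3.77%, so that it is near the share over all genes. It was NPC2, a cholesterol carrier of the lysosome, with a log2 change of -0.50 ± 0.11 (adjusted p = 0.022). In the mannose 6-phosphate and sorting list, 2 of 11 were higher and 1 lower in TNF-treated cells, beside 12.6% and 14.7% of genes, and 4 higher and 0 lower in untreated cells, beside 16.1% and 16.4%. Under the common median 0 were higher and 1 lower in TNF-treated cells, and 1 higher and 0 lower in untreated cells. Without the array that stood apart 4 were higher and 1 lower in TNF-treated cells. SORL1, a sorting receptor, was the only one of the 11 called with TNF, in p53 siRNA cells (log2 change -1.06 ± 0.17, adjusted p = 0.00306), beside 2.92% of genes lower. SORL1 was detected on all 3 arrays of untreated p53 siRNA cells and on none of TNF-treated p53 siRNA cells. The size of its fall is therefore not measured. With p53 siRNA, NAGPA, which uncovers the mannose 6-phosphate signal, rose by 0.63 ± 0.10 in TNF-treated and by 0.59 ± 0.10 in untreated cells (adjusted p = 0.00104 and 0.00126).

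In MHC class II presentation, the pathway in which CTSS acts, the genes called with TNF were higher and those called with p53 siRNA lower. With TNF, 4 of 12 tested genes rose in p53 siRNA cells, beside 3.13% of all genes, and 4 in control siRNA cells, beside 4.06%, and 0 fell. HLA-DRA, the alpha chain of HLA-DR, rose by 1.09 ± 0.12 in p53 siRNA cells and by 0.93 ± 0.12 in control siRNA cells (SE, adjusted p = 0.000169 and 0.00047). CD74, the invariant chain that CTSS trims, rose by 0.70 ± 0.14 in p53 siRNA cells and by 0.98 ± 0.14 in control siRNA cells (adjusted p = 0.0141 and 0.00134). With p53 siRNA, 7 of 12 fell in TNF-treated cells and 7 in untreated cells, beside 14.7% and 16.4% of all genes, and 0 rose. HLA-DMB, a subunit of the peptide-loading HLA-DM, fell, with log2 changes of -1.66 ± 0.14 in TNF-treated and -1.54 ± 0.14 in untreated cells (adjusted p = 1.28e-05 and 2.07e-05), as did IFI30, a lysosomal thiol reductase, with -1.17 ± 0.18 and -1.07 ± 0.18 (0.000779 and 0.00114). With a common median 8 fell in TNF-treated and 7 in untreated cells, and 3 rose with TNF in p53 siRNA cells. The TNF call of CD74 in p53 siRNA cells was also lost without TNF-treated p53 siRNA replicate 2 or 3 (adjusted p up to 0.118 over its alternatives).

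Of the NF-kB and interferon transcription factors, 3 of 12 rose with TNF in each siRNA condition, beside 3.13% of genes in p53 siRNA cells and 4.06% in control siRNA cells. Without the array that stood apart 4 were higher and 1 lower in control siRNA cells. RELB rose by 1.58 ± 0.13 in p53 siRNA cells and by 2.50 ± 0.13 in control siRNA cells (SE, adjusted p = 1.42e-05 and 1.85e-07), NFKB2 by 1.42 ± 0.16 and 2.11 ± 0.16 (0.000212 and 5.78e-06), and NFKB1 by 0.78 ± 0.13 and 0.96 ± 0.13 (0.00311 and 0.000559). With p53 siRNA, 0 were higher and 4 lower in TNF-treated cells, beside 12.6% and 14.7% of genes, and 1 was higher and 4 lower in untreated cells, beside 16.1% and 16.4%. IRF1, a transcription factor of the interferon response, fell by 1.27 ± 0.25 on the log2 scale in TNF-treated cells (adjusted p = 0.00293). SPI1, a factor known to drive CTSS in myeloid cells, was undetected in all 4 groups.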

How the data were processed

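Signals came from 12 Illumina bead arrays of 1 colour. Per the file headers, the deposited signal table holds, for 47322 probes, an intensity and its detection p-value on every array. Per the submitters' processing notes the authors used GenomeStudio, with no version or settings stated there. A table of the authors' processed intensity values (47313 probes, linear, each column with a median of 241.6, normalisation unknown) served as an alternative.

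Background correction, an offset of 16, quantile normalisation and log2 used neqc (limma 3.58.1, R 4.3.3), and 23079 probes were kept, those detected at p under 0.05 on 3 or more arrays. One mean per group was fitted to all 12 arrays (lmFit, eBayes, 8 residual and 4.15 prior degrees of freedom), 2-sided, with Benjamini-Hochberg adjustment over all kept probes, as checked on simulated data. Gene names came from the platform annotation (30107 probes with 1 symbol, 8 with several, the others unnamed here), and 0 symbols changed on matching to RefSeq. Probes of a gene are numbered by brightness, and the brightest stands for a gene in a list. The number of arrays, 3 per group, limits the precision. Depletion by the p53 siRNA was not checked, as its target is not reported here.

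The genes and lists were chosen with earlier results of these data known. Genes named are the 10 members, the 5 genes most correlated with CTSS and with CTSW, at most the 3 called genes with the largest change per list and comparison and genes that define a list. The neighbours of CTSS and CTSW were added after the data were seen. Alternatives covered background correction, scaling, the detection filter, gene summaries, the arrays in the fit, array weights, a replicate block and leaving out each array.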

Additional observations from a re-analysis of the deposited data

How the results depend on the processing

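Over 1645 recomputed log2 changes of the 15 probes, 1515 kept their direction and their side of the threshold, 60 kept the direction and lost the call, 22 gained a call, 0 called changes reversed, and 48 uncalled ones changed sign. The number of probes called with TNF in control siRNA cells was 4, and 1 with arrays brought to a common median. With TNF in p53 siRNA cells it was 3, and 0 when only the compared groups were fitted. With p53 siRNA in untreated cells it was 3, and 5 without background correction. Leaving out 1 array gave 0 to 5 with TNF in control siRNA cells (0 without TNF-treated control siRNA replicate 3), 1 to 5 with TNF in p53 siRNA cells, 3 to 8 with p53 siRNA in TNF-treated cells (3 without TNF-treated control siRNA replicate 2), 2 to 8 with p53 siRNA in untreated cells (2 without untreated control siRNA replicate 3), and 0 for the difference between the TNF responses. The highest count in the first 4 of these came without untreated p53 siRNA replicate 3, and the lowest with TNF in p53 siRNA cells without any 1 of the TNF-treated p53 siRNA arrays. The cause of these shifts was not tested. One value per gene, from the brightest probe or the mean of its probes, kept each count of called genes within 1.5 times. With the replicate number as a block the counts were 4, 3, 3, 5 and 0 in the order TNF in control siRNA cells, TNF in p53 siRNA cells, p53 siRNA in untreated cells, p53 siRNA in TNF-treated cells and the difference, and 1 call was lost, CTSC probe 1 with p53 siRNA under TNF (adjusted p = 0.0579). Arrays of the same number correlated at -0.10 to 0.15 in their deviations from the group means and those of different numbers at -0.13 to 0.12, and 6 of 12 arrays correlated best with their own number, so the numbers were not taken to pair the arrays. Probes near the detection threshold limit what can be said of CTSS, CTSW, CTSC probe 4 and CTSH probe 2.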
